A study of Mus musculus with 6 samples.

Results

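The insulin-like growth factor (IGF) and insulin signaling genes described here are 10 genes of 15667 in the expression table of tick-bitten mouse ear skin. They were picked by gene symbol: the ligands Igf1 and Igf2, the receptors Igf1r and Insr, the receptor substrates Irs1 and Irs2, and the binding proteins Igfbp3, Igfbp4, Igfbp5 and Igfbp7. All 10 were found and all 10 passed the filter of a mean of at least 1 CPM (counts per 1000000 reads). The skin came from female littermates of the line B6;129-Adipoq tm1Chan/J, either Adipo+/+ (WT, n = 3) or Adipo-/- (KO, n = 3), and all 6 mice had been bitten by nymphs of the tick Ixodes scapularis. The Adipo-/- mice carry a targeted null allele of Adipoq in every tissue, so the deletion is limited neither to fat nor to skin. Each library was total RNA of ear skin at a bite site of 1 young mouse, and unbitten skin was not analysed here.

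IGF1 and IGF2 are secreted growth factors that bind the IGF-1 receptor, a tyrosine kinase, while insulin acts mainly through the closely related insulin receptor. Both receptors phosphorylate the substrates IRS1 and IRS2, which recruit PI3 kinase and so activate AKT, and AKT in turn restrains FOXO transcription factors and stimulates mTOR. IGF-binding proteins hold IGFs outside the cell and prolong or limit their action. In skin, fibroblasts of the dermis are a source of IGF1 and keratinocytes of the epidermis carry its receptor. Adiponectin, the hormone missing in KO mice, is known for raising sensitivity to insulin, and the study named Igf1r from these libraries.

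Libraries held an implied 3403691 to 6591406 reads, worked out from the CPM value of 1 read. Adipoq was at 30.5, 63.7 and 49.6 CPM in the WT mice, and 0, 0.560 and 0 CPM in the KO mice, which are 0, 2 and 0 reads (limma log2 fold change -6.17, SE 0.41, adjusted p = 0.00322). The labels therefore matched the targeted gene in all 6 libraries. Markers of basal keratinocytes summed to between 12623 and 19867 CPM, so the epidermis of skin was represented in every library. Sums of 16 hair follicle markers differed widely between libraries. They were 12.3, 18.7 and 23516 CPM in the WT mice, and 1865, 9329 and 974 CPM in the KO mice. WT replicates 1 and 2 lay far below every other library, and WT replicate 3 was the highest. All 16 markers had a lower mean in KO mice but a positive fitted log2 fold change.

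A ligand (Igf2), a receptor (Igf1r) and a substrate (Irs2) were lower in KO skin at an unadjusted limma p below 0.05, none of the 10 genes was higher, and none passed the adjustment for all genes tested. The fitted level of Igf2 fell by 32.9%, that of Igf1r fell by 15.5% and that of Irs2 fell by 27.5%, and in each of them all 3 KO mice lay below all 3 WT mice. Igf1, Insr, Irs1 and the 4 binding proteins did not pass. Of the 14306 genes tested, 1.82% were lower and 1.06% were higher at the same threshold, and in 4.89% all KO values lay below all WT values, against 2.95% above. After Benjamini-Hochberg adjustment over these genes 0 of the 10 passed (adjusted p = 0.998 by limma for each of them), where 0.00699% of all genes, Adipoq alone, passed as lower and 0.00699%, Gm12191 alone, as higher. Igf2, Igf1r and Irs2 also stand in the gene listing that the study made from these same libraries, so neither their direction nor their number here is independent evidence. The 10 genes were also chosen with earlier results of these data known, so their count cannot be weighed against the share of all genes. Without WT replicate 2, 1 of the 10 genes passed the unadjusted threshold as lower (Irs2) and 1 as higher (Igf1). Over the 10 genes 6 fold changes were negative and 4 positive, with a median log2 fold change of -0.07, beside -0.03 over all genes tested.

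**Figure D1:**
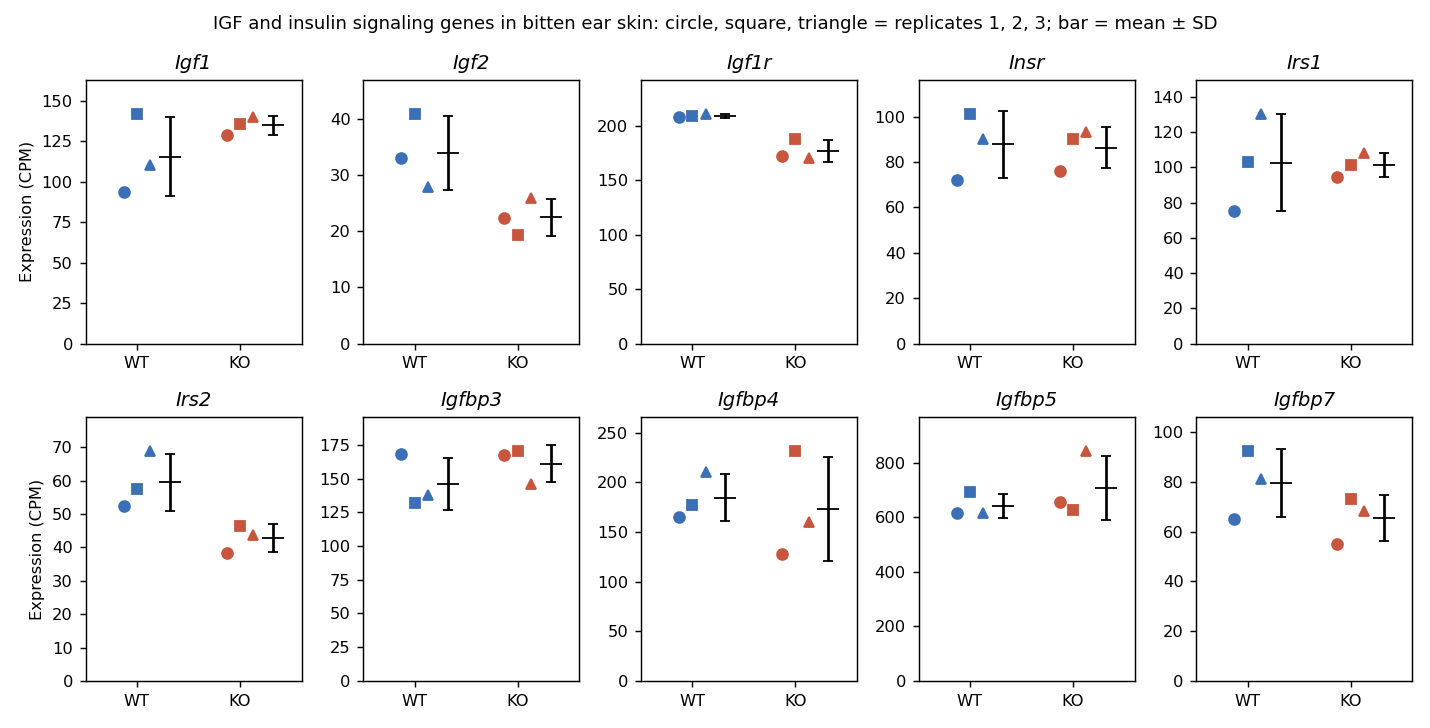
Expression of the 10 IGF and insulin signaling genes in each library, in CPM on linear axes that start at 0, with WT in blue and KO in red. Circles, squares and triangles are replicates 1, 2 and 3, and the labels do not say whether these numbers pair the mice. The black bar is the mean ± SD (n = 3). KO mice lie below WT mice without overlap in Igf2, Igf1r and Irs2, and the groups overlap in the other 7 genes.

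Igf1r encodes the receptor through which IGF1 and IGF2 signal (chromosome 7, 67952257 to 68233667, plus strand, build mm10). It was at 208, 209 and 211 CPM in WT replicates 1, 2 and 3, and at 172, 188 and 170.4 CPM in KO replicates 1, 2 and 3. The WT mice were nearly level and every KO mouse was lower. The group means were 209 ± 1.53 CPM in WT and 177 ± 9.78 CPM in KO mice (SD, n = 3 each). The log2 fold change on the log2(CPM + 0.5) scale was -0.24 (SE 0.090, 95% interval -0.45 to -0.03). The spread of the 3 WT mice was smaller than the 6.50 CPM that counting error alone gives at these depths, so 3 mice do not fix the spread of Igf1r between animals. Leaving out replicates 2 or 3 of the WT group, or 1 or 3 of the KO group, kept the gene lower, with log2 fold changes of -0.24, -0.24, -0.22 and -0.22, but in each of these cases Igf1r no longer passed the unadjusted threshold.

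Irs2 encodes the substrate that carries the signal of both receptors to PI3 kinase, and it is best known in liver (chromosome 8, 10984681 to 11008929, minus strand). It was at 52.3, 57.4 and 68.7 CPM in the WT mice, and 38.2, 46.5 and 43.8 CPM in the KO mice. The highest KO mouse was below the lowest WT mouse. Means were 59.5 ± 8.43 and 42.8 ± 4.22 CPM (SD, n = 3 each), a log2 fold change of -0.46 (SE 0.14, 95% interval -0.80 to -0.13). Irs2 stayed below an unadjusted p of 0.05 in each of 17 alternative analyses, with log2 fold changes of -0.55 to -0.36.

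Igf2 encodes the second IGF, a fetal growth factor expressed from the paternal allele (chromosome 7, 142650768 to 142666816, minus strand). It was at 33.2, 40.9 and 27.9 CPM in the WT mice, and 22.3, 19.3 and 25.9 CPM in the KO mice. The groups did not overlap, but WT replicate 3 and KO replicate 3 lay close together. Means were 34.0 ± 6.55 and 22.5 ± 3.26 CPM (SD, n = 3 each), a log2 fold change of -0.58 (SE 0.19, 95% interval -1.01 to -0.14). Without WT replicate 2 the log2 fold change was -0.44, and without KO replicate 2 it was -0.47, and in both cases Igf2 no longer passed the unadjusted threshold. H19, the non-coding neighbor of Igf2 that is expressed from the other parental allele, was at 27.8, 46.4 and 47.3 CPM in the WT mice, and 14.4, 29.1 and 44.7 CPM in the KO mice, with overlap. Its log2 fold change of -0.56 had a 95% interval of -1.47 to 0.36, and the gene was chosen for mention after its values were seen.

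Bulk RNA cannot tell fewer cells of a type from less RNA per cell. Most markers of fat and of skeletal muscle also had a lower mean in KO mice. Of 15 adipocyte markers 14 had a lower mean in KO mice, and 13 had a negative log2 fold change. At an unadjusted limma p below 0.05, 4 (26.7%) passed as lower, beside 1.82% of all genes tested. The adipocyte sums were 1620 to 2132 CPM in WT and 1414 to 1992 CPM in KO mice. All 15 skeletal muscle markers had a lower mean in KO mice and a negative log2 fold change, and 4 (26.7%) passed. Of all genes tested 56.7% had a negative log2 fold change. The skeletal muscle sums were 6340 to 8246 CPM in WT and 3957 to 7779 CPM in KO mice. The sums overlapped between groups and no marker of either list was at 0 in all libraries. Fibroblast markers summed to 5072 to 6173 CPM in WT and 5175 to 7730 CPM in KO mice, and 6 of 12 had a lower mean in KO mice. Means were also lower in KO mice for all 8 neutrophil, 7 of 8 smooth muscle and pericyte, 8 of 10 macrophage and 9 of 12 endothelial markers. Of these lists 1 endothelial marker (8.33%) passed as lower, and 0 passed in each of the others. Neutrophil sums were 598, 209 and 31.8 CPM in the WT mice, and 200.4, 91.4 and 92.5 CPM in the KO mice. WT replicate 3 was thus the lowest library, and 2 of the 8 neutrophil markers had a positive log2 fold change. All 16 hair follicle markers had a lower mean in KO mice too, but a positive log2 fold change. Their WT mean came from WT replicate 3 (23516 CPM), while WT replicates 1 and 2 (12.3 and 18.7 CPM) lay below every KO mouse. Basal keratinocyte markers were evenly split, with a lower mean in KO mice for 4 of 8. The part of these cell types in the lower Igf2, Igf1r and Irs2 was not tested.

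The promoters of the 3 lower genes are shown because these are the members whose groups did not overlap. They are the 250 bases before a RefSeq start (GRCm38.p6), read 5′ to 3′ on the strand of the gene, with GC boxes (GGGCGG or its complement CCGCCC) in capitals. Igf1r is at chr7:67952007-67952256 (plus strand), Irs2 at chr8:11008930-11009179 (minus strand) and the start of Igf2 nearest to its 3′ end at chr7:142657497-142657746 (minus strand).
Igf1r: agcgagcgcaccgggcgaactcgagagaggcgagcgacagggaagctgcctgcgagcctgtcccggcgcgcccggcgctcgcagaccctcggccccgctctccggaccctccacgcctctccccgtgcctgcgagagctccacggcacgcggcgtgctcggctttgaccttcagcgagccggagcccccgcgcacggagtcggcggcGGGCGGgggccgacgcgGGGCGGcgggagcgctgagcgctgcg
Irs2: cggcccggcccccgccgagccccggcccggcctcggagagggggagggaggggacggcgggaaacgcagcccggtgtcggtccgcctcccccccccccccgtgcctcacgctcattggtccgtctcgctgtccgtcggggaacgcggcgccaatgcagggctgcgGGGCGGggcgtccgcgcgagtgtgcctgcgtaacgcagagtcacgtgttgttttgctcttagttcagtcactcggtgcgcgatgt
Igf2: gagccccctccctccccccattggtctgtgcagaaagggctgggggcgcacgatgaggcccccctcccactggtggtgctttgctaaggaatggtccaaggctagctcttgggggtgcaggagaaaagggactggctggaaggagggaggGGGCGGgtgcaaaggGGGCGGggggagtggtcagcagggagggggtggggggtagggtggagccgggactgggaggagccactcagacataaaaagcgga

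The windows shown are rich in G and C, with 77.6% in Igf1r, 72.8% in Irs2 and 66% in Igf2. The median of 32851 RefSeq windows of the same length was 52.4%. The remaining Igf2 windows held 50.8%, 47.6% and 68.8%. Windows of Igfbp7 (74%), Igfbp3 (73.2%), Irs1 (72.4%) and Igfbp4 (69.2%) were also rich in G and C. Those of Igfbp5 (58.8%) and Igf1 (52.8%) were less so. The Igf1r and Igf2 windows shown each held 2 GC boxes and the Irs2 window held 1, on either strand. Of all RefSeq windows 32.7% held at least 1. A GC box was not particular to the lower genes, since windows of Irs1 (2) and Igfbp7 (4) held them too, while those of Igf1, Igfbp3, Igfbp4 and Igfbp5 did not. Igf2 has 4 RefSeq starts, and 2 of the 4 windows held a GC box. The FOXO letters GTAAACA (3.17% of all windows) and the cyclic AMP element TGACGTCA (1.55%) were in none of these windows, and a TATA box (TATAAA, 12.4%) was in that of Igfbp4 alone. A match is a run of letters and not a measured site. Of the 10 genes 9 had a window, and Insr did not.

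The other member of each pair did not pass. Igf1, the main growth factor of the pathway after birth (chromosome 10, 87858265 to 87937047, plus strand), was at 93.9, 142 and 111 CPM in the WT mice, and 129, 136 and 140.1 CPM in the KO mice. Its WT values reached both below and above the KO values, and the log2 fold change was 0.24 (95% interval -0.11 to 0.60). Without WT replicate 2, the highest WT mouse, Igf1 passed the unadjusted threshold as higher in KO skin, with a log2 fold change of 0.40. Insr, the insulin receptor (chromosome 8, 3150922 to 3279617, minus strand), was at 72.1, 101 and 90.2 CPM in the WT mice, and 76.0, 89.95 and 93.1 CPM in the KO mice. The KO mice fell within the range of the WT mice, and the log2 fold change of -0.02 had a 95% interval of -0.37 to 0.33. Irs1, the substrate best known from muscle and fat (chromosome 1, 82233105 to 82291439, minus strand), was at 75.0, 103 and 130.2 CPM in the WT mice, and 94.5, 101 and 108 CPM in the KO mice. Here too every KO mouse lay inside the WT range, and the interval of the log2 fold change (0.01) was -0.43 to 0.45. The interval of Insr includes the fitted fold change of its partner Igf1r (-0.24), while that of Igf1 does not include that of Igf2 (-0.58) and that of Irs1 ends just short of that of Irs2 (-0.46). These comparisons leave out the error of the partner gene. As whole intervals, those of Irs1 and Irs2 overlap, as do those of Insr and Igf1r, while those of Igf1 and Igf2 do not. The difference in fold change between the members of a pair was not tested.

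**Figure D2:**
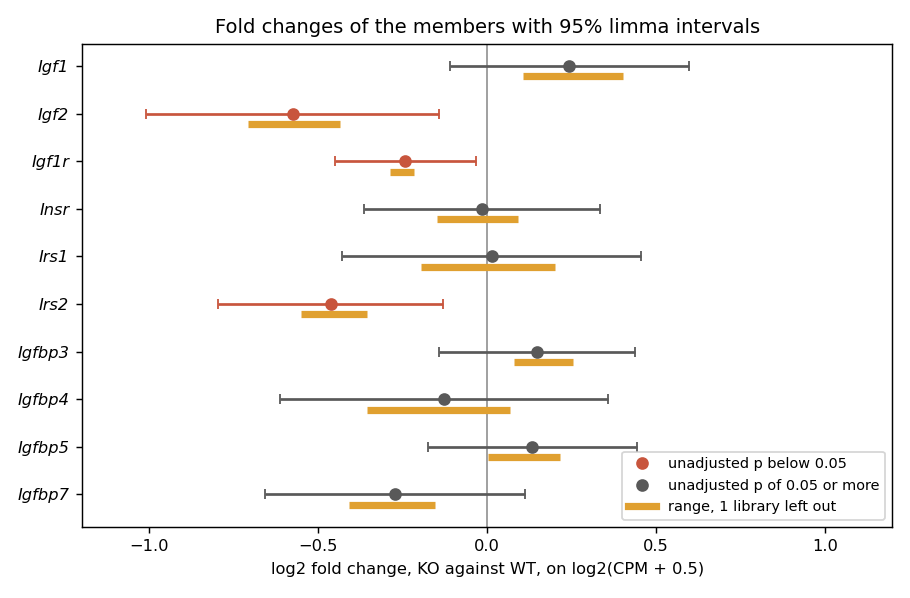
Log2 fold change of KO against WT for each of the 10 genes, on the log2(CPM + 0.5) scale; points are limma estimates, thin bars are 95% intervals, and thick orange bars are the range when 1 library at a time was left out. The intervals of Igf2, Igf1r and Irs2 (red) lie below 0, and those of the other 7 genes include 0.

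The contrast within each pair was also described as a ratio inside every library, which library depth does not enter. The Igf2 to Igf1 ratio of CPM was 0.353, 0.288 and 0.252 in WT and 0.173, 0.143 and 0.184 in KO mice. The Irs2 to Irs1 ratio was 0.697, 0.557 and 0.528 in WT and 0.404, 0.460 and 0.405 in KO mice. The groups did not overlap in either ratio, with means of 0.298 ± 0.0513 and 0.167 ± 0.0217 for the ligands and 0.594 ± 0.0902 and 0.423 ± 0.0318 for the substrates (SD, n = 3 each). The Igf1r to Insr ratio was 2.88, 2.06 and 2.34 in WT and 2.26, 2.09 and 1.83 in KO mice, and there the groups overlapped. The ratios were chosen after the values were seen and carry no test.

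**Figure D3:**
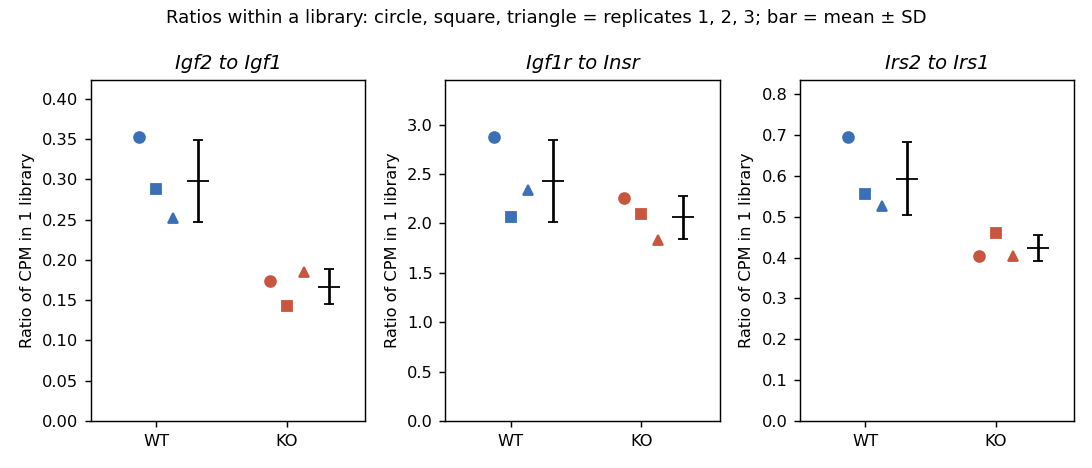
Ratio of the CPM of the 2 members of a pair within each library (linear axes from 0), with WT in blue, KO in red, replicates as circles, squares and triangles, and the mean ± SD (n = 3) as a black bar. The ratios of the ligands and of the substrates do not overlap between groups, and those of the receptors do.

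None of the 4 binding proteins passed the test. Igfbp5 lies on chromosome 1 (72858065 to 72874865, minus strand), Igfbp3 and Igfbp4 on chromosome 11 (7206091 to 7213923, minus strand, and 99041244 to 99052655, plus strand) and Igfbp7 on chromosome 5 (77349240 to 77408045, minus strand). Igfbp5, which binds IGFs in the extracellular matrix, was at 614, 691 and 617 CPM in the WT mice, and 657, 626 and 841 CPM in the KO mice (log2 fold change 0.13, 95% interval -0.18 to 0.44). Igfbp3, the main carrier of IGFs in blood, was at 168, 132 and 137 CPM in the WT mice, and 168, 170.1 and 146 CPM in the KO mice (log2 fold change 0.15, 95% interval -0.14 to 0.44). For both genes the groups overlapped. Igfbp4, an inhibitor of IGF action that the protease pappalysin cleaves, was at 165, 177 and 211 CPM in the WT mice, and 128, 231 and 159.8 CPM in the KO mice. The KO mice held both the lowest and the highest value, and the log2 fold change of -0.13 had a 95% interval of -0.61 to 0.36. Igfbp7, a matrix protein of vessels that binds IGFs weakly, was at 64.9, 92.2 and 81.1 CPM in the WT mice, and 55.1, 73.1 and 68.2 CPM in the KO mice. It overlapped between groups (log2 fold change -0.27, 95% interval -0.66 to 0.11), and without WT replicate 1 its log2 fold change was -0.41 and passed the unadjusted threshold. Igfbp7 overlaps Polr2b on the opposite strand, and the sources used here do not say whether counting used read strand. The 4 binding proteins together summed to 1013, 1092 and 1047 CPM in the WT mice, and 1008, 1100.2 and 1215 CPM in the KO mice, with overlap.

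To compare levels between genes, CPM was divided by the length of the longest coding transcript in GENCODE M21. On this scale of CPM per kb the WT means were 107 ± 7.24 for Igfbp5, 66.1 ± 11.4 for Igfbp7, 60.3 ± 8.06 for Igfbp3 and 48.1 ± 6.15 for Igfbp4. The receptor Igf1r (18.3 ± 0.134) and the ligand Igf1 (16.4 ± 3.45) followed, and then Irs1 (11.2 ± 3.02), Irs2 (9.40 ± 1.33), Insr (9.39 ± 1.56) and Igf2 (7.19 ± 1.39). Igfbp5 stood above all the others and the 4 binding proteins above the remaining 6 genes, with no overlap between libraries. From Igfbp7 to Igfbp4, and again from Igf1r to Igf2, each gene overlapped with its neighbor in this order. In KO mice Igf1, at 19.1 ± 0.810 CPM per kb, stood above Igf1r, at 15.5 ± 0.857, without overlap. The order rests on the transcript chosen, since the coding transcripts of Igf1 run from 510 to 7052 bases and those of Igf2 from 376 to 4722 bases. Those of Igfbp4 run from 489 to 3831 bases and those of Insr from 672 to 9355 bases. The place of Igfbp5 above Igfbp4 thus rests on this choice too. Igf1, Igf2, Insr, Irs1 and Irs2 also overlap genes on the opposite strand in GENCODE M21, and Igf2 overlaps the protein-coding Gm49394 and the microRNA gene Mir483 on its own strand, where read strand cannot separate them.

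The rest of the pathway was described from a list of 76 other genes, of which 72 were in the table and 71 were tested. Ins1 and Ins2, Insrr and Igfbp1 were not among the genes of the table. At an unadjusted limma p below 0.05, 2 genes were lower and 1 was higher in KO skin, which is 2.82% and 1.41% of the list beside 1.82% and 1.06% of all genes, and 0 passed the limma adjustment. All 3 KO values lay below all WT values in 4 of the 71 genes and above them in 1, beside 4.89% and 2.95% of all genes tested. The median log2 fold change was -0.07, and 50 of the 71 were negative (70.4%, beside 56.7% of all genes tested). The share of called genes in the list was thus near that of all genes. The called genes are therefore described below because the naming rule includes them, and not as a result about the pathway. The 3 called genes, Stc2, Grb14 and Eif4ebp1, also stand in the gene listing of the study, so their direction is not independent evidence either.

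**Figure D4:**
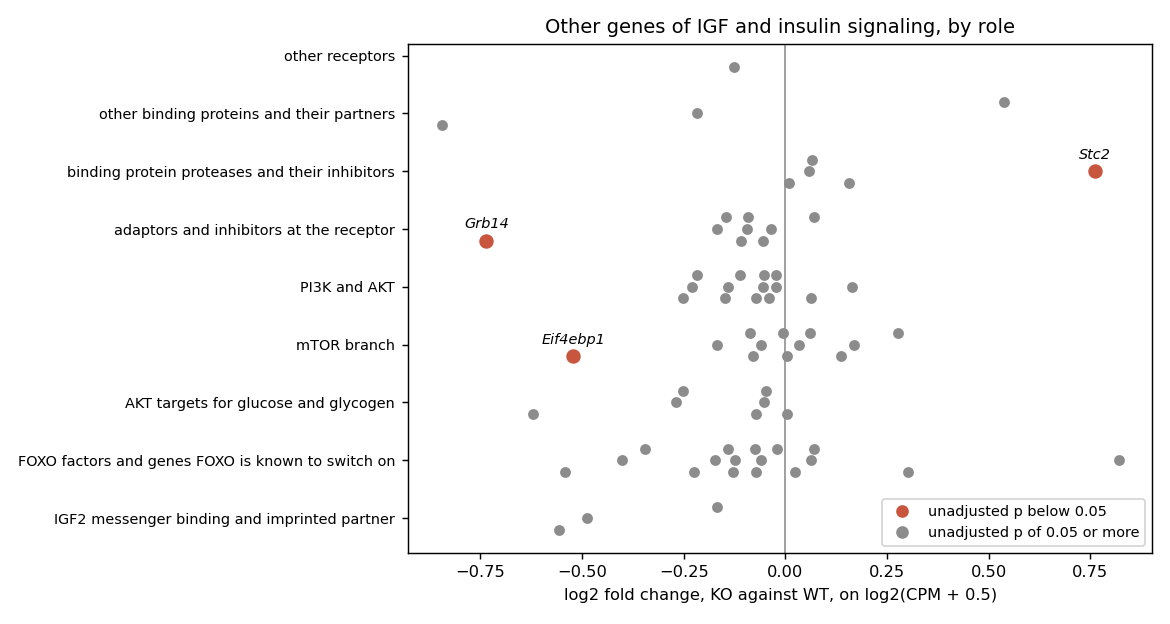
Log2 fold change of KO against WT for the 71 tested pathway genes other than the 10 members, on the log2(CPM + 0.5) scale, with 1 point per gene in a line for each role (points are shifted up and down for legibility only). Stc2, Grb14 and Eif4ebp1 (red) passed an unadjusted limma p below 0.05.

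Outside the cell, Stc2 was the gene that passed the unadjusted threshold. Stanniocalcin-2 blocks the pappalysins, the proteases that free IGFs from their binding proteins. Stc2 was at 6.29, 7.93 and 9.73 CPM in the WT mice, and 10.2, 13.2 and 19.1 CPM in the KO mice, so that every KO mouse was higher. The log2 fold change was 0.76 (95% interval 0.11 to 1.41), and without KO replicate 3 no gene of the list passed as higher. The proteases Pappa and Pappa2 had log2 fold changes of 0.16 and 0.07, and did not pass. Igfbp2 (0.54, 95% interval -0.06 to 1.14) and the IGF2 clearance receptor Igf2r (-0.13, 95% interval -0.48 to 0.23) overlapped between groups.

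At the receptor, Grb14 passed the unadjusted threshold as lower. It encodes an adaptor that inhibits the activated insulin receptor, and it was at 4.84, 5.29 and 6.26 CPM in the WT mice, and 3.34, 3.64 and 2.35 CPM in the KO mice. The groups did not overlap, at a low level, with a log2 fold change of -0.74 (95% interval -1.38 to -0.09). The other 8 adaptors and inhibitors, among them Grb10 (-0.11) and Ptpn1 (-0.09), did not pass.

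Within the cell, Eif4ebp1 passed the unadjusted threshold as lower. It encodes 4E-BP1, a repressor of translation that mTOR inactivates. WT mice held 22.3, 22.0 and 17.1 CPM of it and KO mice 11.7, 15.7 and 15.0 CPM, without overlap (log2 fold change -0.52, 95% interval -0.97 to -0.08). The other 11 genes of the mTOR branch did not pass. Without WT replicate 2, 0 of the 71 genes passed as lower, and without KO replicate 1, 1 gene did, while 4 did without WT replicate 1 or without KO replicate 3.

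No gene of PI3 kinase and AKT signaling passed. The 14 genes of this group had log2 fold changes of -0.25 to 0.16 with a median of -0.06, and the smallest p was that of Phlpp1, a phosphatase of AKT (-0.22, 95% interval -0.51 to 0.07). Akt1 and Akt2 had log2 fold changes of -0.04 and -0.02. Their 95% intervals were -0.40 to 0.32 and -0.27 to 0.22.

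Of the 7 targets of AKT in glucose and glycogen handling none passed. Slc2a4, the insulin-responsive glucose transporter of muscle and fat, was at 22.0, 24.0 and 37.6 CPM in the WT mice, and 17.6, 11.5 and 26.1 CPM in the KO mice, with overlap (log2 fold change -0.62, 95% interval -1.36 to 0.12). Of 17 FOXO factors and genes that FOXO is known to switch on, 0 passed and 12 were negative. Pdk4, which restrains glucose oxidation, had a log2 fold change of 0.82 (95% interval -0.10 to 1.74). The muscle ubiquitin ligases Fbxo32 and Trim63 had -0.40 (95% interval -1.09 to 0.29) and -0.54 (95% interval -1.43 to 0.35). Each of these genes overlapped between groups. All 15 skeletal muscle markers also had a lower mean in KO mice, and a link to Fbxo32 and Trim63 was not tested. Among genes that bind the IGF2 messenger, Igf2bp2 was at 6.29, 4.27 and 3.96 CPM in the WT mice, and 3.19, 3.64 and 2.94 CPM in the KO mice. Its groups did not overlap, but its log2 fold change of -0.49 (95% interval -1.15 to 0.18) did not pass.

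The genes whose levels followed Igf1r most closely over the 6 libraries were Ppp1r1a (Pearson r = 0.991), Btla (0.986), Echdc1 (0.983), Tmem254b (0.981) and Islr2 (0.978). These correlations are a description over libraries of both groups, and all of them follow the step between WT and KO mice. With 14306 genes and 6 libraries high values are common, and 38 genes had an r above 0.95. Ppp1r1a, an inhibitor of a protein phosphatase, was at 4.36, 3.87 and 4.29 CPM in the WT mice, and 1.67, 2.52 and 1.76 CPM in the KO mice. Echdc1, an enzyme of fatty acid metabolism, was at 51.0, 55.0 and 51.2 CPM in the WT mice, and 38.3, 44.3 and 36.7 CPM in the KO mice. Btla, an inhibitory receptor of lymphocytes, was below 2 CPM in every library. The table also lists Tmem254a and Tmem254c, and whether reads were divided among them and Tmem254b was not tested.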

How the data were processed

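RNA-seq was measured in ear skin at the tick bite site of 3 WT and 3 KO mice. The authors aligned reads with STAR (version 2.7.3a) to mm10 and quantified Ensembl transcripts by expectation-maximization in Partek Flow, summed per gene. The deposited values are CPM with an offset of 0.0001, which was subtracted. Groups came from the labelled genotype. The sources used here do not say whether counting used strand.

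The CPM value of 1 read was found from the lowest values, of which 91.6% to 92.9% were whole reads within 0.1, and gave depths of 3403691 to 6591406 reads. Other values were fractions, so reads are estimates, and intervals from them cover counting error only. No libraries were duplicates (chi-square per degree of freedom 8.7 to 45.1).

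The 14306 genes whose mean reached 1 CPM (1361 others were not tested) were fitted as log2(CPM + 0.5) with limma (3.58.1, run in R 4.3.3, using lmFit followed by eBayes with trend), two-sided, on all 6 libraries, with no covariate and Benjamini-Hochberg adjustment over all genes tested. This scale understates changes of low genes. An unadjusted p below 0.05 was also used, since the listing of the study used that level. Each library was 1 mouse, and 3 against 3 cannot give an exact permutation p below 0.1, so no such test was made. This fit was checked on simulated data with known changes. The members and lists were chosen with earlier results of these data known. Genes were named by a rule: the 10 members, Adipoq, pathway genes at an unadjusted p below 0.05 and otherwise the smallest p of each role, and the 5 genes with the highest Pearson correlation with Igf1r. Others were named as examples after their values were seen. There were 17 alternatives: pseudocounts, filters, scalings, variance models, the replicate number as a block, and leaving out each library.

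Markers of hair follicle, endothelium, macrophages, neutrophils and smooth muscle were summed as well. Endothelial sums were 237 to 257 CPM in WT and 161 to 265 CPM in KO mice, macrophage sums 781 to 1343 and 750.4 to 1313 CPM, neutrophil sums 31.8 to 598 and 91.4 to 200.4 CPM, and smooth muscle and pericyte sums 437 to 562 and 317 to 563 CPM. Promoter windows came from RefSeq (GRCm38.p6).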

Additional observations from a re-analysis of the deposited data

How the results depend on the processing

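No member passed the adjustment under any of the 17 alternatives. Irs2 was called lower (unadjusted p below 0.05) in all 17, Igf2 in 15 and Igf1r in 12; the exceptions were those given above and, for Igf1r, limma without the trend. Leaving out 1 library at a time gave 1 to 4 lower members and 0 to 1 higher, 0 to 4 lower pathway genes and 0 to 1 higher, and a log2 fold change of Adipoq of -6.54 to -5.94. Without WT replicate 2 the adjusted limma p of Adipoq was 0.0683. With limma voom on implied reads Adipoq had a log2 fold change of -7.88 with an adjusted p of 0.488. The filter at a mean of 5 CPM removed Grb14 (group means of 5.46 CPM in WT and 3.11 CPM in KO mice) and left 1 lower pathway gene. Array weights gave 2 higher pathway genes. For the other changes the cause was not tested. Insr, Irs1 and Igfbp4, whose fold changes were near 0, changed sign. Insr was at 0.014 after median-of-ratios rescaling and 0.024 after quantile normalization, and ran from -0.15 to 0.093 with 1 library left out. Irs1 was at -0.0013 with array weights and -0.0083 with voom, and ran from -0.19 to 0.20. Igfbp4 ran from -0.36 to 0.067. Of all genes, 260 were lower and 152 higher at an unadjusted p below 0.05 with the deposited scaling, 215 and 210.0 after median-of-ratios rescaling, and 193 and 232 after quantile normalization, with Igf2, Igf1r and Irs2 called under each. The labels do not say whether the replicate numbers pair the mice. Correlations of same-numbered deviations were 0.38, -0.31 and -0.22, and with 3 mice per group they cannot decide it. With the replicate block, 4 members were lower (Igfbp7 as well), and 4 pathway genes were lower and 2 higher. Over all genes the block gave 414 lower and 177 higher calls. Depth limited low genes, since 3 reads were worth 0.455 to 0.881 CPM.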
